A study of Mus musculus with 24 samples.

Results

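A module of 39 genes that serve the endoplasmic reticulum (ER) was followed in the brain and the liver of mice that had lost a phenylalanine tRNA gene. The genes were chosen by symbol, and all 39 were found among the 55469 genes of each tissue's table. They fall into 7 roles: 5 translocon genes, 4 genes of the translocon-associated protein (TRAP) complex, 2 of the signal recognition particle (SRP) receptor, 7 of the oligosaccharyltransferase, 10 of ER-associated degradation (ERAD), 3 of the unfolded protein response (UPR), which are 2 sensors and a transcription factor, and 8 folding factors and UPR targets. Male C57BL/6N mice, 10 weeks old and fed a normal chow diet, were wild type (WT) or lacked both copies of a tRNA gene. The gene was tRNA-Phe-GAA-1-1 in the line written tRNA-Phe-1-1-/-, and it was tRNA-Phe-GAA-2-1 in tRNA-Phe-2-1-/-. In the third line, tRNA-Phe-3-1-/-, it was tRNA-Phe-GAA-3-1. The product of these genes brings phenylalanine to the ribosome. Each knockout was 1 line made with CRISPR-Cas9 and lacked its tRNA gene in every tissue. Total RNA of small pieces of brain or liver was sequenced, with 3 replicates (A, B and C) of each of the 4 genotypes in each of the 2 tissues, 24 samples in all. The methods describe RNA of several WT and several mutant mice. The labels tie no replicate to a given mouse, and do not say whether a brain and a liver came from the same one.

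Proteins that are secreted or sit in membranes enter the ER through the Sec61 translocon while they are being made, after the SRP and its receptor have brought the ribosome to the membrane. The oligosaccharyltransferase attaches sugar chains to the growing protein, chaperones fold it, and ERAD pulls out and destroys what does not fold. When unfolded protein builds up, sensors in the ER membrane switch on the UPR. The sensor IRE1, encoded by Ern1, splices the RNA of the transcription factor Xbp1, and the sensor ATF6 is cut and moves to the nucleus. Both act on promoters that hold the ER stress response element (ERSE) or related motifs. Hepatocytes secrete much of the protein of blood plasma and are rich in ER.

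The promoters that hold an ERSE or an ERSE-II within 250 bases before and 50 bases after the start given in the RefSeq promoter table were those of Syvn1, Herpud1, Derl3, Creld2 and Ero1b. The first 4 are shown, picked after it was seen that these genes rose in tRNA-Phe-1-1-/- livers. Of the 9 members that rose there and had a window, the other 5 (Srprb, Edem3, Xbp1, Pdia5 and Uggt1) held neither motif. Capitals mark the bases of the motif that are fixed, and in Derl3 and Creld2 the motif is on the opposite strand, so that its reverse complement is shown. The sequences are the 250 bases before the start of each of these genes from RefSeq for the mouse build GRCm38.p6, 5′ to 3′.
Syvn1, chr19:6046326-6046575, plus strand: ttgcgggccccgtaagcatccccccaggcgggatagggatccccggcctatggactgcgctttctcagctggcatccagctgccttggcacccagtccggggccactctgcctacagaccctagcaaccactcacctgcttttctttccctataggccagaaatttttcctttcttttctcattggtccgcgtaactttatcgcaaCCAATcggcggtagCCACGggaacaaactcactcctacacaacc
Herpud1, chr8:94386179-94386428, plus strand: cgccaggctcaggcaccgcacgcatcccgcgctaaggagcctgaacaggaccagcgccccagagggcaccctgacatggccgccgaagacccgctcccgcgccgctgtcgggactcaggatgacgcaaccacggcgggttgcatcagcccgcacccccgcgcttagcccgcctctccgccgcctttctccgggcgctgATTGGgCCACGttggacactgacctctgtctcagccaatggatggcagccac
Derl3, chr10:75893148-75893397, plus strand: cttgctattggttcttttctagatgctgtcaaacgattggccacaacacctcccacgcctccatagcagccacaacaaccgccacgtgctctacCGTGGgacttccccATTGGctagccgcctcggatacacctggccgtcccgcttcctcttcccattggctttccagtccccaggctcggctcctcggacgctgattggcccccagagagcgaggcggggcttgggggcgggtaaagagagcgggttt
Creld2, chr15:88819396-88819645, plus strand: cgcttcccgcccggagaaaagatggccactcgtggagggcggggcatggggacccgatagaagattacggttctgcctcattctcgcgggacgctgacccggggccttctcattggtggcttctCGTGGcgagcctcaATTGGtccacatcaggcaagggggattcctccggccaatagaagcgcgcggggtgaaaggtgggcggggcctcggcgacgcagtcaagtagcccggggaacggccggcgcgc
The ERSE was searched as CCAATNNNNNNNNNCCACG and the ERSE-II as ATTGGNCCACG, on both strands, in the 32 members that had a window in the table. Of these, 4 held an ERSE (12.5%, against 0.137% of the 27025 genes in the table) and 1, Herpud1, held an ERSE-II (3.12%, against 0.0444%). The UPRE core TGACGTG, which overlaps in letters with the CRE palindrome TGACGTCA, was found in 1 member, Srpr (3.12%, against 2.22% of all genes), and the CRE in 0 of 32 (against 2.03%). The windows of Sec61a1, Ssr2, Ostc, Derl1, Atf6, Manf and Hyou1 were not analysed here. Counted from the start of the gene, the motif lay at positions -44 to -26 in Syvn1, -52 to -42 in Herpud1, -156 to -138 in Derl3 and -126 to -108 in Creld2. In Ero1b it lay at -201 to -183 from the start the table uses, which is inside the annotated gene. These matches describe letters and not bound sites. Ero1b holds the motif and did not pass the test against WT with limma in either tissue, while in tRNA-Phe-1-1-/- livers it passed with DESeq2.

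The depth recovered from the tables was 30365760 to 46225360 reads in a brain sample and 32276896 to 51584522 reads in a liver sample. Over all genes tested, tRNA-Phe-1-1-/- liver replicate B lay further from replicates A and C than these lay from each other. The squared difference in reads per gene, divided by that of counting noise, averaged 146 for A and B, 158 for B and C and 60.6 for A and C. Neuron markers summed to 87192 normalised counts or more in every brain sample and hepatocyte markers to 2157300.0 or more in every liver sample, and every marker of these lists had a mean of at least 10 in its tissue in each genotype. The brain libraries differed in their markers of the choroid plexus, one of which (Ttr) is also a hepatocyte marker. These summed to 633 to 13172 in WT, 191 to 590.2 in tRNA-Phe-1-1-/-, 191 to 52844 in tRNA-Phe-2-1-/- and 183 to 26721 in tRNA-Phe-3-1-/-. In bulk tissue, fewer cells of a type and less RNA per cell cannot be told apart. The tables of the 2 tissues were normalised separately, so that no level was tested between them.

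In tRNA-Phe-1-1-/- brains, 2 of the 39 genes rose against WT, Derl3 and Xbp1, and 0 fell. In tRNA-Phe-1-1-/- livers, 11 rose and 0 fell: Srprb, Syvn1, Herpud1, Edem3, Derl3, Xbp1, Atf6, Creld2, Hyou1, Pdia5 and Uggt1. In tRNA-Phe-2-1-/- and in tRNA-Phe-3-1-/-, 0 of the 39 passed the test against WT in either tissue. The test was limma on log2(normalised count + 1), with an adjusted p under 0.05 over all genes tested, and all 39 genes passed the filter on low values in both tissues. A gene that passed, rose or fell did so in this test, unless another tool is named. Of all 19228 genes tested in the brain, 1.05% passed in tRNA-Phe-1-1-/- and 0.624% passed as higher, beside 2 of 39 (5.13%). Of 15856 genes tested in the liver, 17.3% passed in tRNA-Phe-1-1-/- and 8.27% as higher, beside 11 of 39 (28.2%). At an unadjusted p under 0.05 in tRNA-Phe-1-1-/- were 10 members and 15.9% of all genes in the brain. In the liver these were 18 members and 31.8% of all genes.

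The 3 samples of tRNA-Phe-1-1-/- lay above all 3 WT samples for 17 of the 39 genes in the brain and for 20 in the liver, and below them for 1 and 0. Among all genes tested, 12.8% lay wholly above and 12.4% wholly below in the brain, and 17.2% and 17.6% in the liver. In tRNA-Phe-2-1-/-, 1 member lay wholly above WT and 5 below in the brain (6.02% and 5.43% of all genes). In its livers these were 7 and 6 (13.1% and 12.2%). In tRNA-Phe-3-1-/- they were 2 and 5 in the brain (7.93% and 8.48%) and 1 and 7 in the liver (9.85% and 10.1%). Among the 39 genes the log2 fold change in tRNA-Phe-1-1-/- had a median of 0.11 in brains and 0.22 in livers, beside medians of all genes of -0.00059 and -0.0051. The members' median was -0.05 in tRNA-Phe-2-1-/- and 0.02 in tRNA-Phe-3-1-/- in the brain, and 0.06 and -0.05 in the liver. Without WT replicate B or C, or tRNA-Phe-1-1-/- replicate B or C, 0 members passed in tRNA-Phe-1-1-/- brains, and without WT replicate A 1 did, while 8 to 15 passed in tRNA-Phe-1-1-/- livers without each replicate in turn. The share of all genes that passed was 0% in tRNA-Phe-2-1-/- and 0% in tRNA-Phe-3-1-/- brains (0 genes in each, with 1071 and 2373 genes, or 5.57% and 12.3%, at an unadjusted p under 0.05, among them 3 and 6 members), and 0.132% in tRNA-Phe-2-1-/- and 0.883% in tRNA-Phe-3-1-/- livers. In these livers 8 members of tRNA-Phe-2-1-/- and 8 of tRNA-Phe-3-1-/- had an unadjusted p under 0.05, as did 14.9% and 16.1% of all genes. On the recovered reads edgeR called 0 members in each of these 4 comparisons, and DESeq2 called 0 in both brains, 1 in tRNA-Phe-2-1-/- livers and 2 in tRNA-Phe-3-1-/- livers. All 3 knockouts were set against the same WT samples.

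**Figure D1:**
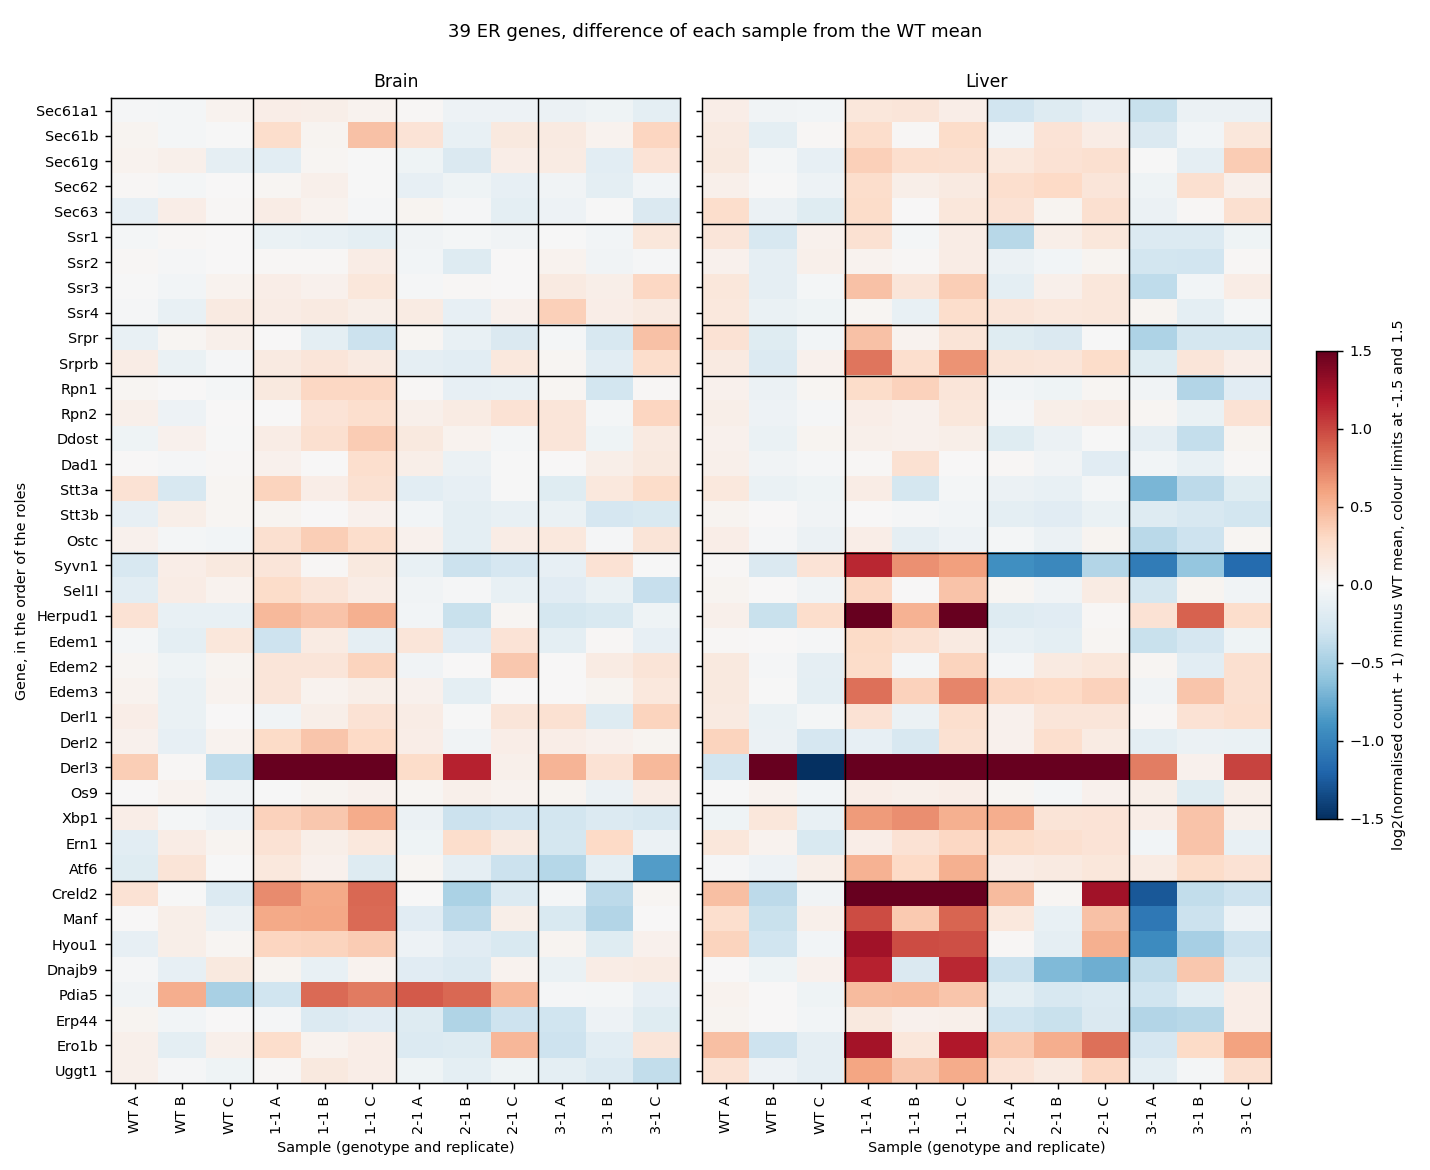
The 39 genes in each of the 24 samples, as the difference of log2(normalised count + 1) from the WT mean of the tissue (colour, limited to -1.5 and 1.5), with the genes in the order of their roles and the samples by genotype and replicate. The 3 tRNA-Phe-1-1-/- columns are red for Herpud1, Derl3, Xbp1, Creld2, Manf and Hyou1 in both tissues, and Syvn1 is red in tRNA-Phe-1-1-/- livers and blue in tRNA-Phe-2-1-/- and in tRNA-Phe-3-1-/- livers.

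Among the sensors and the transcription factor, Xbp1 rose in tRNA-Phe-1-1-/- in both tissues, Atf6 rose in the liver and Ern1 did not pass the test in either. Xbp1 (at chr11:5520641-5525993) encodes the transcription factor made active by splicing, which counts per gene do not resolve. In the brain its normalised count was 3037, 2776 and 2683 in WT, 3605, 3739.6 and 4171 in tRNA-Phe-1-1-/-, 2655, 2256 and 2321 in tRNA-Phe-2-1-/- and 2345, 2444 and 2389.6 in tRNA-Phe-3-1-/-, here and below in the order of replicates A, B and C. Each tRNA-Phe-1-1-/- brain lay above every other brain, and 6 of 6 brains of the other 2 knockouts lay below every WT brain. The rise was 1.35-fold in the brain (log2 fold change 0.44 ± 0.08 (SE), adjusted p = 0.0393), and the test of any difference among the 4 genotypes gave an adjusted p of 0.0107. In the liver Xbp1 was 7266, 8539 and 7014 in WT, 11755, 12308 and 10998 in tRNA-Phe-1-1-/-, 11078, 8697 and 8749 in tRNA-Phe-2-1-/- and 8152, 10189 and 8006 in tRNA-Phe-3-1-/-. The tRNA-Phe-1-1-/- livers lay above WT without overlap, but the lowest, 10998, lay below the highest tRNA-Phe-2-1-/- liver (log2 fold change 0.62 ± 0.12 (SE), adjusted p = 0.00619, 1.54-fold). The call in the brain was lost without WT replicate A (adjusted p = 0.0607), B (0.119) or C (0.153) and without tRNA-Phe-1-1-/- replicate B (0.137) or C (0.145). It was also lost with no filter (0.0589), quantile normalisation (0.0546), no variance trend (0.0671), a replicate block (0.0616) and only the groups compared in the fit (0.0621).

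Atf6 (chr1:170704457-170868585), the sensor that is cut to release a transcription factor, was 3879, 3732 and 4168 in WT, 5611, 4826 and 5669 in tRNA-Phe-1-1-/-, 4243, 4294 and 4417 in tRNA-Phe-2-1-/- and 4287, 4762 and 4558 in tRNA-Phe-3-1-/- in the liver. All 9 knockout livers lay above all WT livers, and the 3 tRNA-Phe-1-1-/- livers lay highest. The rise in tRNA-Phe-1-1-/- livers was 1.37-fold (log2 fold change 0.45 ± 0.08 (SE), adjusted p = 0.00364). In tRNA-Phe-2-1-/- and in tRNA-Phe-3-1-/- livers the log2 fold changes were 0.14 ± 0.08 and 0.21 ± 0.08 (adjusted p = 0.442 and 0.233). In the brain Atf6 was 3974, 5164 and 4489.9 in WT, 5051, 4722 and 3942 in tRNA-Phe-1-1-/-, 4618, 4120.1 and 3625 in tRNA-Phe-2-1-/- and 3361, 4068 and 2536 in tRNA-Phe-3-1-/-, with tRNA-Phe-1-1-/- and WT overlapping (log2 fold change 0.01 ± 0.17, 95% confidence interval -0.36 to 0.38). Ern1, the IRE1 gene, was 383, 463 and 439 in WT and 496, 455 and 477 in tRNA-Phe-1-1-/- in the brain and 3806, 3496 and 2876 in WT and 3624, 3905 and 4168 in tRNA-Phe-1-1-/- in the liver. Its log2 fold change in tRNA-Phe-1-1-/- was 0.16 ± 0.14 in the brain and 0.21 ± 0.14 in the liver, and the groups overlapped in both.

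**Figure D2:**
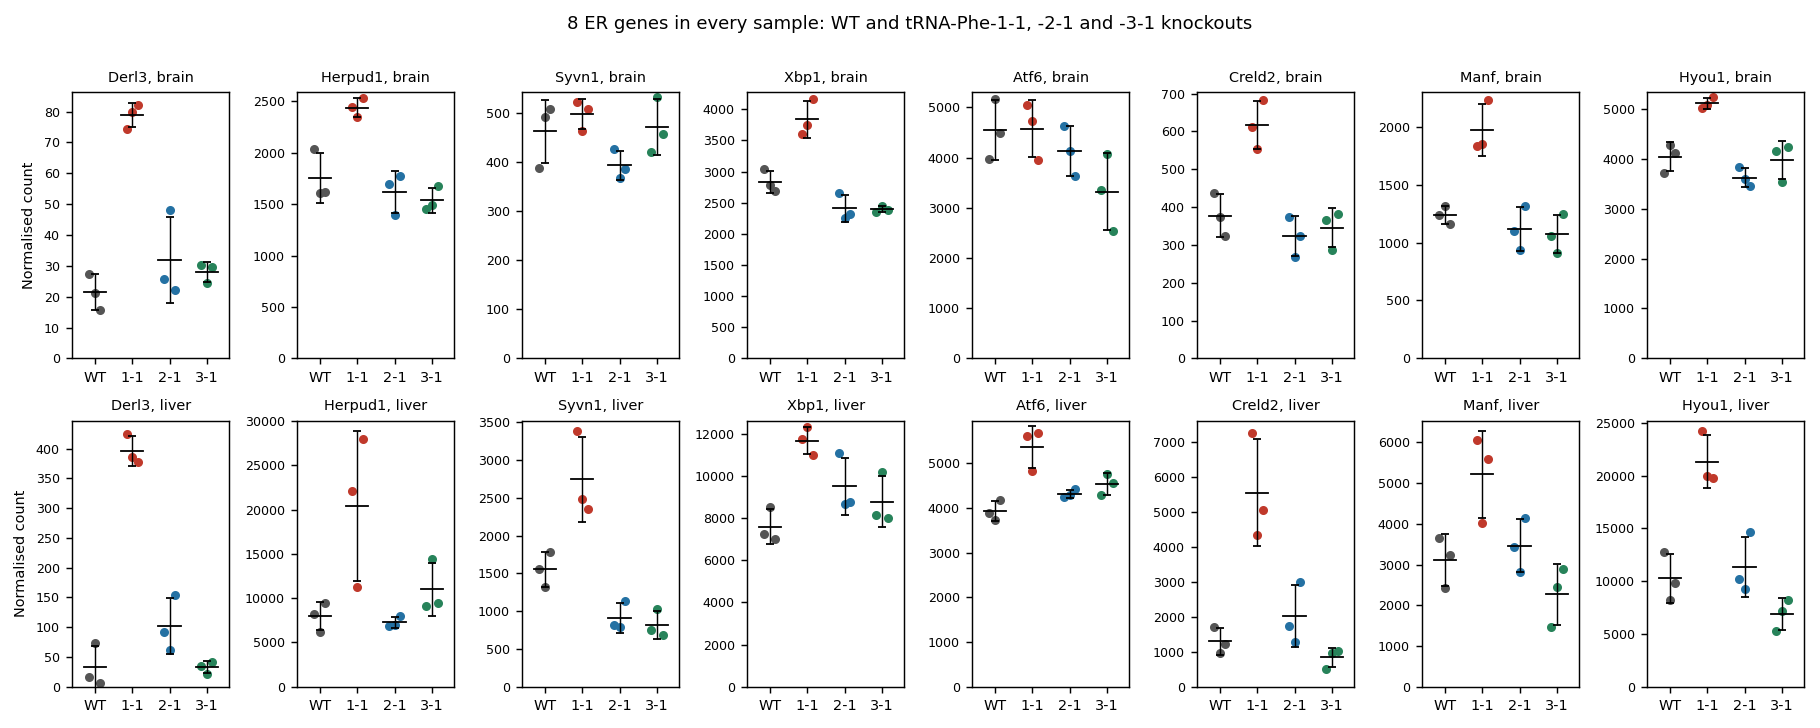
Normalised counts (vertical axis, from 0) of 8 genes in each sample by genotype (horizontal axis; 1-1, 2-1 and 3-1 are the knockouts), with the mean as a line and the SD of 3 samples as the error bar, for the brain above and the liver below. The mean of Derl3, Herpud1, Xbp1, Creld2, Manf and Hyou1 is highest in tRNA-Phe-1-1-/- in both tissues, while the tRNA-Phe-1-1-/- samples of Syvn1 and Atf6 lie above WT in the liver and overlap with it in the brain.

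Of the 10 ERAD genes, 1 (Derl3) rose in tRNA-Phe-1-1-/- brains and 4 (Syvn1, Herpud1, Edem3 and Derl3) rose in tRNA-Phe-1-1-/- livers, 0 fell, and the median log2 fold change was 0.15 and 0.23. Among all genes tested, 0.624% rose in tRNA-Phe-1-1-/- brains and 8.27% in tRNA-Phe-1-1-/- livers. Derl3 (chr10:75893398-75895941) encodes a derlin, a membrane protein of the channel through which misfolded proteins leave the ER. In the brain it was 27.4, 21.1 and 15.8 in WT, 74.5, 80.01 and 82.2 in tRNA-Phe-1-1-/-, 25.6, 48.00 and 22.2 in tRNA-Phe-2-1-/- and 30.2, 24.4 and 29.6 in tRNA-Phe-3-1-/-. The tRNA-Phe-1-1-/- brains lay close together and above all other brains. In the liver it was 16.6, 74.1 and 6.49 in WT, 425, 385 and 378 in tRNA-Phe-1-1-/-, 91.3, 61.98 and 154 in tRNA-Phe-2-1-/- and 35.5, 21.4 and 42.2 in tRNA-Phe-3-1-/-. WT livers spread widely at this low level, overlapping with tRNA-Phe-2-1-/- and with tRNA-Phe-3-1-/-, and the tRNA-Phe-1-1-/- livers lay above every other liver. Derl3 rose 3.64-fold in the brain (log2 fold change 1.86 ± 0.30 (SE), adjusted p = 0.0218). In the liver its mean was 396 ± 25.6 in tRNA-Phe-1-1-/- and 32.4 ± 36.5 in WT (SD, n = 3), and it rose on the scale of log2(normalised count + 1) (log2 fold change 4.21 ± 0.65 (SE), adjusted p = 0.00164). The size of this change moved with single WT livers, since the log2 fold change was 5.11 without WT replicate B and 3.45 without WT replicate C. It was 3.57 with edgeR and 3.59 with DESeq2. In tRNA-Phe-2-1-/- livers the log2 fold change against WT was 2.17 ± 0.65 (adjusted p = 0.185), and it was 3.07 without WT replicate B and 1.41 without WT replicate C. The brain call was lost without WT replicate B (adjusted p = 0.0723) or C (0.0904) and without tRNA-Phe-1-1-/- replicate B (0.105) or C (0.0939).

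The other derlins did not pass with limma. Derl2 was 855, 751 and 849 in WT and 998, 1089 and 1008 in tRNA-Phe-1-1-/- in the brain, where the tRNA-Phe-1-1-/- samples lay above WT without overlap (log2 fold change 0.33 ± 0.08 (SE), adjusted p = 0.0765), and DESeq2 called it (adjusted p = 0.00626). In the liver Derl2 was 4152, 3109 and 2772 in WT and 3015, 2791 and 3872 in tRNA-Phe-1-1-/-, overlapping (log2 fold change -0.05 ± 0.15 (SE), adjusted p = 0.868). Derl1 had log2 fold changes of 0.08 ± 0.13 and 0.13 ± 0.10 in tRNA-Phe-1-1-/- brain and liver. In the liver the 95% confidence interval of the log2 fold change was -0.37 to 0.28 for Derl2 and 2.78 to 5.64 for Derl3, and the difference between the genes was not tested.

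Herpud1 (chr8:94386429-94395371) encodes a membrane protein that gathers the degradation complex and is a known UPR target. Herpud1, Syvn1, Pdia5, Uggt1, Ero1b and Edem1 were outside the rule for named genes and were added after their values were seen. In the liver it was 8246, 6236 and 9406 in WT, 22053, 11279 and 27962 in tRNA-Phe-1-1-/-, 6889, 6986 and 7957 in tRNA-Phe-2-1-/- and 9107, 14479 and 9454 in tRNA-Phe-3-1-/-. Replicate B of tRNA-Phe-1-1-/- lay below both other replicates and below the highest tRNA-Phe-3-1-/- liver, though above all WT livers (log2 fold change 1.28 ± 0.29 (SE), adjusted p = 0.012, 2.43-fold). In the brain Herpud1 was 2037, 1613 and 1619.7 in WT, 2441, 2348 and 2528 in tRNA-Phe-1-1-/-, 1692, 1389.7 and 1774 in tRNA-Phe-2-1-/- and 1448, 1491 and 1673 in tRNA-Phe-3-1-/-, and the tRNA-Phe-1-1-/- brains lay above all others without passing the test against WT with limma (log2 fold change 0.48 ± 0.11 (SE), adjusted p = 0.0769). DESeq2 called this difference (adjusted p = 0.00967).

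Syvn1 (chr19:6046576-6053718) encodes HRD1, the ubiquitin ligase of ERAD. In the liver it was 1557, 1322 and 1779.7 in WT, 3383, 2489 and 2359.7 in tRNA-Phe-1-1-/-, 815, 787 and 1140.2 in tRNA-Phe-2-1-/- and 745, 1033 and 689.7 in tRNA-Phe-3-1-/-. The tRNA-Phe-1-1-/- livers lay above WT (log2 fold change 0.81 ± 0.20 (SE), adjusted p = 0.0167), and all 6 livers of tRNA-Phe-2-1-/- and of tRNA-Phe-3-1-/- lay below WT, with log2 fold changes of -0.77 ± 0.20 (adjusted p = 0.134) and -0.93 ± 0.20 (adjusted p = 0.0557) that did not pass the test with limma. DESeq2 on the recovered reads called both of these, with adjusted p = 0.0173 and 0.00137, and for tRNA-Phe-3-1-/- limma did so with quantile normalisation (0.0476) or with only genes of a mean of at least 50 (0.0488). The call in tRNA-Phe-1-1-/- was lost without WT replicate B (adjusted p = 0.0647) or tRNA-Phe-1-1-/- replicate A (0.0702). In the brain Syvn1 was 388, 491 and 508 in WT and 522, 463 and 507 in tRNA-Phe-1-1-/-, overlapping (log2 fold change 0.11 ± 0.13 (SE), adjusted p = 0.707).

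Edem3, a mannosidase that trims the sugars of proteins bound for ERAD, was 2340.0, 2106 and 1912 in WT, 3753, 2686 and 3502 in tRNA-Phe-1-1-/-, 2623, 2592 and 2679 in tRNA-Phe-2-1-/- and 2033, 2828 and 2497 in tRNA-Phe-3-1-/- in the liver. tRNA-Phe-1-1-/- lay above WT without overlap (log2 fold change 0.63 ± 0.14 (SE), adjusted p = 0.0106), and the call was lost without WT replicate C (adjusted p = 0.051). Edem1 and Edem2, of the same family, had log2 fold changes of 0.22 ± 0.08 and 0.19 ± 0.13 in the liver and did not pass (adjusted p = 0.103 and 0.331). Sel1l, the partner of HRD1, gave 0.19 ± 0.09 in the brain and 0.25 ± 0.11 in the liver, and passed in the liver without tRNA-Phe-1-1-/- replicate B (adjusted p = 0.0314). With quantile normalisation Edem1 (0.0422) and Sel1l (0.0482) passed in tRNA-Phe-1-1-/- livers. Os9, a lectin that hands proteins to HRD1, was 3926, 4045 and 3756 in WT and 3891, 4020.2 and 4074 in tRNA-Phe-1-1-/- in the brain (log2 fold change 0.03 ± 0.07 (SE), adjusted p = 0.855), and had a log2 fold change of 0.09 ± 0.08 in the liver.

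Of the 8 folding factors and UPR targets, 4 (Creld2, Hyou1, Pdia5 and Uggt1) rose in tRNA-Phe-1-1-/- livers, 0 passed in tRNA-Phe-1-1-/- brains with limma (3 at an unadjusted p under 0.05, and DESeq2 called 3, Creld2, Manf and Hyou1), and 0 fell. All 8 had a positive log2 fold change in the liver, with a median of 0.72, and 6 of 8 in the brain, with a median of 0.24. Of all genes tested, 8.27% rose in tRNA-Phe-1-1-/- livers and 0.624% in tRNA-Phe-1-1-/- brains, where 15.9% had an unadjusted p under 0.05. Creld2 (chr15:88819646-88826681), a secreted factor made under ER stress, was 1722, 956 and 1213 in WT, 7263, 4347 and 5046 in tRNA-Phe-1-1-/-, 1751, 1289 and 3008 in tRNA-Phe-2-1-/- and 521, 978 and 1018 in tRNA-Phe-3-1-/- in the liver. The lowest tRNA-Phe-1-1-/- liver lay above the highest of all other livers. Creld2 rose 4.3-fold in tRNA-Phe-1-1-/- livers (log2 fold change 2.11 ± 0.35 (SE), adjusted p = 0.00216), while in tRNA-Phe-2-1-/- and in tRNA-Phe-3-1-/- the log2 fold changes were 0.59 ± 0.35 and -0.65 ± 0.35 (adjusted p = 0.448 and 0.393). In the brain it was 436, 373 and 324 in WT, 613, 555 and 682 in tRNA-Phe-1-1-/-, 374, 269 and 325 in tRNA-Phe-2-1-/- and 366, 286 and 382 in tRNA-Phe-3-1-/-. The tRNA-Phe-1-1-/- brains again lay above all others, but the difference from WT did not pass with limma (log2 fold change 0.71 ± 0.16 (SE), adjusted p = 0.067). It passed with DESeq2 (adjusted p = 0.00384) and with a replicate block (0.0496).

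Manf (chr9:106888753-106891938), a secreted ER protein that is known to protect neurons, was 1239, 1317 and 1160.3 in WT, 1834, 1853 and 2229 in tRNA-Phe-1-1-/-, 1099, 939 and 1314 in tRNA-Phe-2-1-/- and 1058, 912 and 1242 in tRNA-Phe-3-1-/- in the brain. The tRNA-Phe-1-1-/- brains lay above every other brain, and the difference from WT stood just over the threshold (log2 fold change 0.67 ± 0.14 (SE), adjusted p = 0.052, 1.59-fold). It passed with only genes of a mean of at least 50 (adjusted p = 0.0481), with only the 2 groups in the fit (0.0471), with a replicate block (0.044) and with DESeq2 (0.00133). The test of any difference among the 4 genotypes gave 0.0449. In the liver Manf was 3664, 2426 and 3239 in WT, 6048, 4016 and 5595 in tRNA-Phe-1-1-/-, 3429, 2826 and 4141 in tRNA-Phe-2-1-/- and 1455, 2443 and 2899 in tRNA-Phe-3-1-/-, and tRNA-Phe-1-1-/- replicate B lay below a tRNA-Phe-2-1-/- liver (log2 fold change 0.75 ± 0.25 (SE), adjusted p = 0.0661). It passed there without that replicate (adjusted p = 0.0431), with quantile normalisation (0.038) and with DESeq2 (0.0203).

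Hyou1 (chr9:44379490-44392369), a large chaperone of the ER lumen, was 12807, 8224 and 9851 in WT, 24231, 19965 and 19734 in tRNA-Phe-1-1-/-, 10217, 9217 and 14619 in tRNA-Phe-2-1-/- and 5267, 7175 and 8192 in tRNA-Phe-3-1-/- in the liver. tRNA-Phe-1-1-/- lay above all other livers and rose 2.1-fold (log2 fold change 1.07 ± 0.21 (SE), adjusted p = 0.00603). In tRNA-Phe-3-1-/- livers all 3 samples lay below all WT samples, and the log2 fold change of -0.58 ± 0.21 did not pass (adjusted p = 0.21). In the brain Hyou1 was 3714, 4278 and 4119 in WT, 5019, 5081 and 5235 in tRNA-Phe-1-1-/-, 3829, 3583 and 3445 in tRNA-Phe-2-1-/- and 4144, 3541 and 4226 in tRNA-Phe-3-1-/-. The tRNA-Phe-1-1-/- brains formed a narrow group above the rest (log2 fold change 0.34 ± 0.08 (SE), adjusted p = 0.0798), a difference that DESeq2 called (adjusted p = 0.00925).

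Pdia5, a disulfide isomerase, was 1387, 1336 and 1276 in WT and 1858, 1865 and 1779 in tRNA-Phe-1-1-/- in the liver, with no overlap (log2 fold change 0.46 ± 0.10 (SE), adjusted p = 0.00759). Uggt1, which tests the fold of glycoproteins and marks misfolded ones, was 6080.1, 4966 and 4772 in WT and 7918, 6944 and 7695 in tRNA-Phe-1-1-/- there (log2 fold change 0.52 ± 0.12 (SE), adjusted p = 0.0117). The groups did not overlap, and the call of Uggt1 was lost without WT replicate C (adjusted p = 0.0558). Dnajb9, a co-chaperone known as a target of XBP1, was 674, 629.9 and 755 in WT and 706, 634 and 711 in tRNA-Phe-1-1-/- in the brain, where the groups overlapped (log2 fold change -0.0035 ± 0.11 (SE), adjusted p = 0.993, 95% confidence interval -0.24 to 0.23). In the liver it was 1129, 1074 and 1180.4 in WT, 2500.3, 966 and 2470.2 in tRNA-Phe-1-1-/-, 904, 712 and 678 in tRNA-Phe-2-1-/- and 876, 1496 and 989 in tRNA-Phe-3-1-/-. Replicates A and C of tRNA-Phe-1-1-/- held the highest counts of the tissue and replicate B lay below all WT livers, and with it the difference did not pass by limma (log2 fold change 0.69 ± 0.32 (SE), adjusted p = 0.162) but did by DESeq2 (adjusted p = 0.0396). By limma it passed without replicate B (log2 fold change 1.14, adjusted p = 0.0042). Ero1b, an oxidase that drives disulfide formation, was 6415, 3035 and 6227 in tRNA-Phe-1-1-/- and 3689, 2184 and 2457 in WT livers, where replicate B of tRNA-Phe-1-1-/- again lay lowest and within the range of WT (log2 fold change 0.87 ± 0.30 (SE), adjusted p = 0.0694, and 0.0102 without tRNA-Phe-1-1-/- replicate B). It also passed without WT replicate A (adjusted p = 0.0432), with quantile normalisation (0.0492) and with DESeq2 (0.0131). Erp44, which holds back ER proteins, was 1835, 1798 and 1737 in WT and 1979.9, 1875 and 1885 in tRNA-Phe-1-1-/- in the liver (log2 fold change 0.10 ± 0.12 (SE), adjusted p = 0.638), with a log2 fold change of -0.13 ± 0.09 in the brain.

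**Figure D3:**
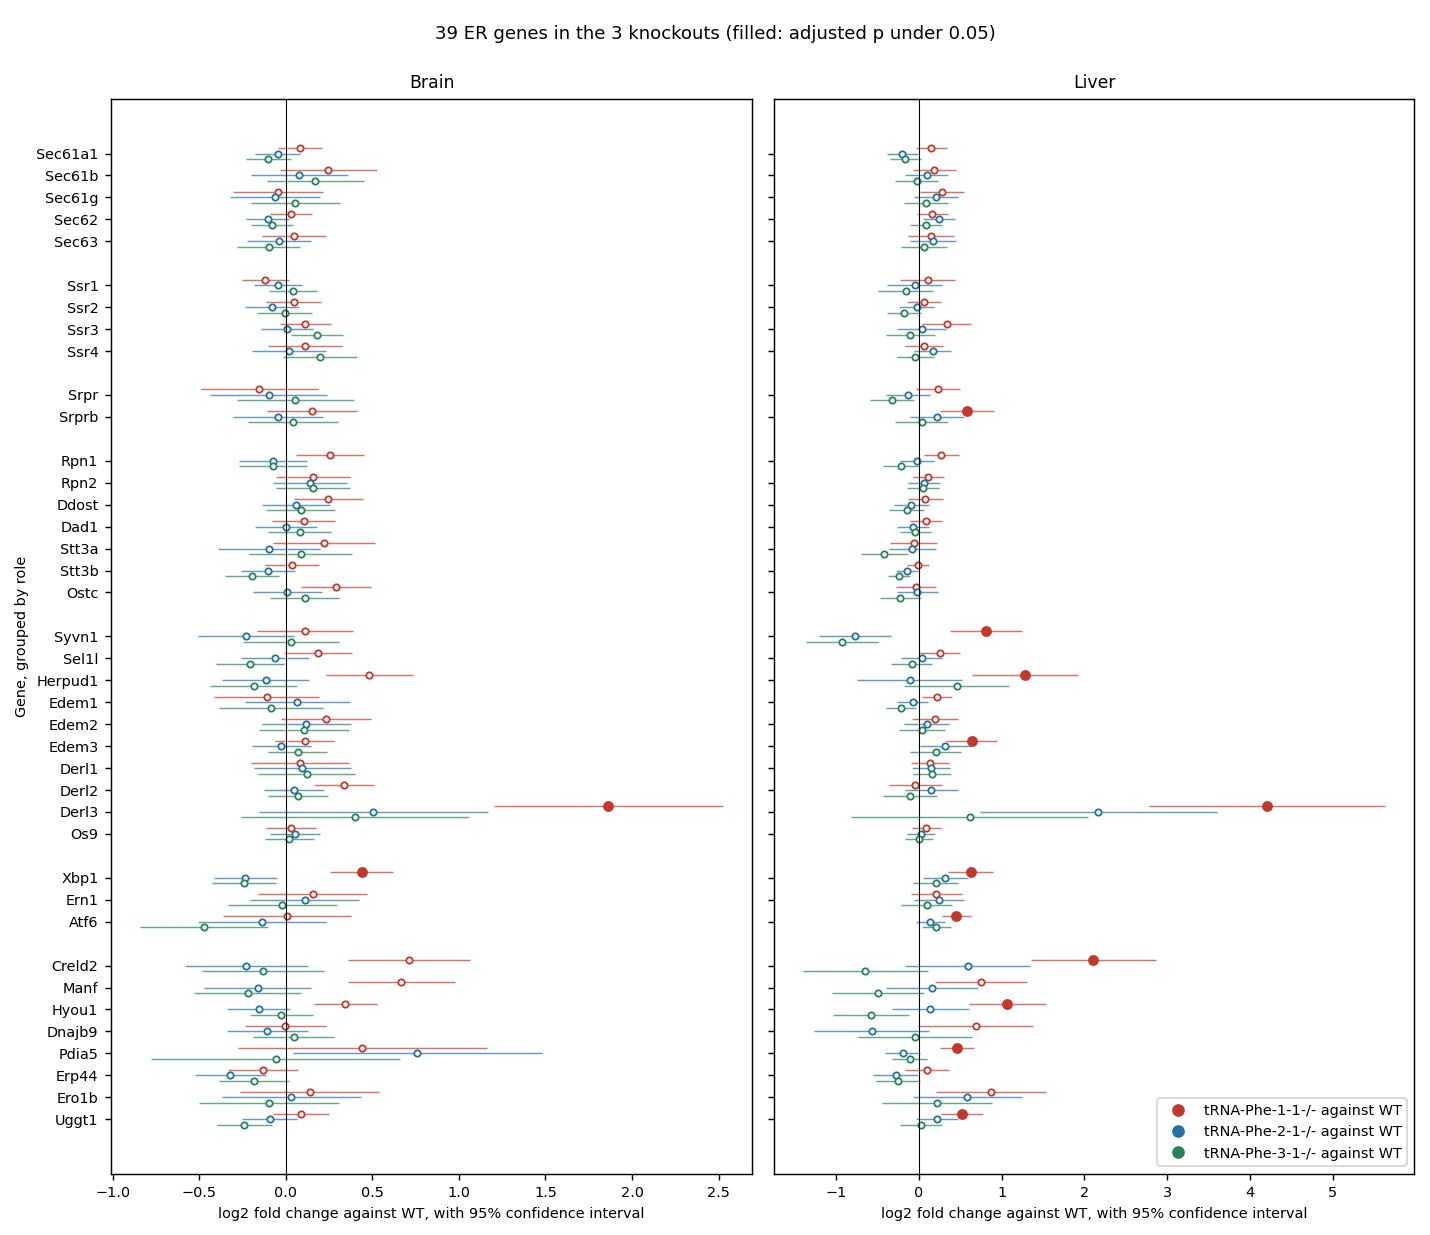
The log2 fold change against WT with its 95% confidence interval (horizontal axis; the 2 panels differ in scale) for the 39 genes grouped by role, in the brain and the liver, coloured by knockout, with a filled point where the adjusted p was under 0.05. Filled points occur for tRNA-Phe-1-1-/- alone, 2 in the brain and 11 in the liver, all to the right of 0.

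Of the 11 genes that serve protein entry (translocon, TRAP complex and SRP receptor), 0 passed in tRNA-Phe-1-1-/- brains by limma (0 also at an unadjusted p under 0.05). In tRNA-Phe-1-1-/- livers 1 of them, Srprb, rose, beside 8.27% of all genes tested. Srprb encodes the membrane anchor of the SRP receptor. It was 858, 679 and 819.8 in WT, 1363, 935 and 1251 in tRNA-Phe-1-1-/-, 897, 889 and 943 in tRNA-Phe-2-1-/- and 688, 886 and 837 in tRNA-Phe-3-1-/- in the liver. The lowest tRNA-Phe-1-1-/- liver, replicate B, lay above WT but below the highest tRNA-Phe-2-1-/- liver. The rise was 1.49-fold (log2 fold change 0.58 ± 0.15 (SE), adjusted p = 0.0204), and the call was lost without WT replicate B (adjusted p = 0.0777) or C (0.0501) and without tRNA-Phe-1-1-/- replicate A (0.0845) or C (0.0562), and with only the groups compared in the fit (0.0642). In the brain Srprb was 989.7, 855 and 903 in WT and 1004, 1036 and 1006 in tRNA-Phe-1-1-/-, with tRNA-Phe-1-1-/- just above WT (log2 fold change 0.15 ± 0.12 (SE), adjusted p = 0.574). Srpr, the subunit that binds the SRP, was 1097, 1207 and 1244 in WT and 1186, 1067 and 945 in tRNA-Phe-1-1-/- in the brain. Its tRNA-Phe-1-1-/- and WT samples overlapped there and in the liver (log2 fold change -0.15 ± 0.15 in brains and 0.23 ± 0.12 in livers). In tRNA-Phe-3-1-/- livers it was 3089, 3527 and 3537 beside 4947, 3749.8 and 4128 in WT, all 3 below WT (log2 fold change -0.33 ± 0.12 (SE), adjusted p = 0.216).

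The 5 translocon genes had log2 fold changes in tRNA-Phe-1-1-/- from -0.05 to 0.25 in the brain and from 0.15 to 0.28 in the liver. Sec61a1, the channel subunit, was 8828, 7899.9 and 7969.8 in WT, 9264, 9301 and 8821 in tRNA-Phe-1-1-/-, 6728, 7204 and 7524 in tRNA-Phe-2-1-/- and 6545, 7759 and 7748 in tRNA-Phe-3-1-/- in the liver. The tRNA-Phe-1-1-/- and WT livers overlapped by the margin of a single pair of samples, and all 6 livers of tRNA-Phe-2-1-/- and of tRNA-Phe-3-1-/- lay below WT. The log2 fold changes of Sec61a1 were 0.15 ± 0.09 in tRNA-Phe-1-1-/-, -0.20 ± 0.09 in tRNA-Phe-2-1-/- and -0.17 ± 0.09 in tRNA-Phe-3-1-/- (adjusted p = 0.256, 0.306 and 0.375). The small subunit Sec61b was 328, 314 and 318 in WT and 385, 329 and 433 in tRNA-Phe-1-1-/- in the brain, all tRNA-Phe-1-1-/- brains above all WT brains (log2 fold change 0.25 ± 0.13 (SE), adjusted p = 0.369). Sec61g, the other small subunit, was 1544, 1364 and 1275 in WT and 1785, 1650.5 and 1637 in tRNA-Phe-1-1-/- in the liver, again without overlap (log2 fold change 0.28 ± 0.12 (SE), adjusted p = 0.135). In the other tissue the log2 fold change was 0.19 ± 0.12 for Sec61b and -0.05 ± 0.12 for Sec61g. Sec62, which helps proteins enter after they are made, was 5144, 4999 and 5118 in WT, 5185, 5356 and 5052 in tRNA-Phe-1-1-/-, 4652, 4863 and 4676 in tRNA-Phe-2-1-/- and 4903, 4601 and 4944 in tRNA-Phe-3-1-/- in the brain, where tRNA-Phe-2-1-/- and also tRNA-Phe-3-1-/- lay below WT. In the liver it was 3724, 3517 and 3349 in WT, 4228, 3747 and 3867 in tRNA-Phe-1-1-/-, 4191, 4325 and 4003 in tRNA-Phe-2-1-/- and 3386, 4158 and 3715 in tRNA-Phe-3-1-/-, and tRNA-Phe-1-1-/- and tRNA-Phe-2-1-/- lay above WT. Its log2 fold change in tRNA-Phe-1-1-/- was 0.03 ± 0.06 in brains and 0.16 ± 0.09 in livers. Sec63, a partner of Sec62, was 4907, 3851 and 3592 in WT and 4936, 4094 and 4577 in tRNA-Phe-1-1-/- in the liver, with overlap (log2 fold change 0.15 ± 0.13 (SE), adjusted p = 0.464).

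The 4 TRAP genes, whose products sit beside the channel and assist the entry of some proteins, had log2 fold changes in tRNA-Phe-1-1-/- from -0.12 to 0.11 in the brain and from 0.06 to 0.33 in the liver. Ssr1 was 5012, 5189 and 5150.2 in WT and 4777, 4748 and 4629 in tRNA-Phe-1-1-/- in the brain. It is the 1 member whose tRNA-Phe-1-1-/- brains all lay below all WT brains (log2 fold change -0.12 ± 0.06 (SE), adjusted p = 0.391). Ssr3 was 8298, 6721 and 7265 in WT and 10048, 8418 and 9590.2 in tRNA-Phe-1-1-/- in the liver, with tRNA-Phe-1-1-/- above WT (log2 fold change 0.33 ± 0.14 (SE), adjusted p = 0.113, and 0.0382 with quantile normalisation). In the brain too its tRNA-Phe-1-1-/- samples (2970 to 3194) lay above WT (2746 to 2936), without passing the test. The other subunits overlapped with WT in both tissues. Ssr2 was 1288, 1251 and 1271 in WT and 1282, 1282 and 1369 in tRNA-Phe-1-1-/- in the brain (log2 fold change 0.05 ± 0.07, and 0.06 ± 0.10 in livers). Ssr4 was 3017, 2514 and 2588 in WT and 2754, 2497 and 3236 in tRNA-Phe-1-1-/- in the liver (log2 fold change 0.06 ± 0.10, and 0.11 ± 0.10 in brains).

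Of the 7 oligosaccharyltransferase genes, 0 passed in tRNA-Phe-1-1-/- in either tissue by limma. At an unadjusted p under 0.05 were 3 in the brain and 1 in the liver, beside 15.9% and 31.8% of all genes. In the brain all 7 had a positive log2 fold change, with a median of 0.22, and in the liver 4 of 7, with a median of 0.08. Rpn1, the ribophorin I gene, was 3833, 3765 and 3669 in WT and 4147, 4673 and 4643 in tRNA-Phe-1-1-/- in the brain (log2 fold change 0.25 ± 0.09 (SE), adjusted p = 0.19) and 5727, 5145 and 5569 in WT and 6628, 6969.6 and 6235 in tRNA-Phe-1-1-/- in the liver (log2 fold change 0.27 ± 0.10 (SE), adjusted p = 0.0756). The tRNA-Phe-1-1-/- samples lay above WT in both tissues. Ostc, a subunit that ties the enzyme to the translocon, was 733, 686 and 681 in WT and 825, 903 and 842 in tRNA-Phe-1-1-/- in the brain, again above WT (log2 fold change 0.29 ± 0.09 (SE), adjusted p = 0.157), with a log2 fold change of -0.04 ± 0.11 in the liver. Rpn2, the ribophorin II gene, was 6710.3, 5977 and 6233 in WT and 6766, 6609 and 7068 in tRNA-Phe-1-1-/- in the liver, with overlap (log2 fold change 0.11 ± 0.09, and 0.15 ± 0.10 in brains). Stt3b, a catalytic subunit, was 4930.1, 4823 and 4635 in WT, 4806, 4728 and 4677 in tRNA-Phe-1-1-/-, 4316, 4268 and 4468 in tRNA-Phe-2-1-/- and 4203, 4059.7 and 3948 in tRNA-Phe-3-1-/- in the liver. The livers of tRNA-Phe-2-1-/- and of tRNA-Phe-3-1-/- all lay below WT, as they did for 12.2% and 10.1% of all genes. The log2 fold changes of Stt3b were -0.14 ± 0.06 and -0.24 ± 0.06 (adjusted p = 0.315 and 0.0935). DESeq2 called Stt3b lower in tRNA-Phe-3-1-/- livers (adjusted p = 0.00102).

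The knockouts were also compared with each other, which sets tRNA-Phe-1-1-/- against lines that had lost another tRNA-Phe gene. In the brain, 5 of 39 genes were higher in tRNA-Phe-1-1-/- than in tRNA-Phe-2-1-/- (0.53% of all genes passed, 0.395% as higher): Herpud1, Xbp1, Creld2, Manf and Hyou1. Against tRNA-Phe-3-1-/-, 8 were higher (2.11% of all genes passed, 1.41% as higher), namely these 5 with Sel1l, Derl3 and Uggt1. Xbp1 gave a log2 difference of 0.67 ± 0.08 from tRNA-Phe-2-1-/- and 0.68 ± 0.08 from tRNA-Phe-3-1-/- (adjusted p = 0.00776 and 0.00458). Manf gave 0.83 ± 0.14 and 0.89 ± 0.14 (adjusted p = 0.0313 and 0.0166), and Creld2 gave 0.94 ± 0.16 and 0.84 ± 0.16 (adjusted p = 0.0316 and 0.0285). No member was lower in tRNA-Phe-1-1-/-. Both counts fell to 0 when only the 2 groups compared entered the fit. Against tRNA-Phe-2-1-/- the count was 1 without tRNA-Phe-1-1-/- replicate A, B or C or tRNA-Phe-2-1-/- replicate A, 0 without tRNA-Phe-2-1-/- replicate B and 2 without tRNA-Phe-2-1-/- replicate C. Against tRNA-Phe-3-1-/- it was 2 without tRNA-Phe-1-1-/- replicate A, 1 without tRNA-Phe-1-1-/- replicate B or C or tRNA-Phe-3-1-/- replicate A, 4 without tRNA-Phe-3-1-/- replicate B and 3 without tRNA-Phe-3-1-/- replicate C. Between tRNA-Phe-3-1-/- and tRNA-Phe-2-1-/-, 0 of 39 members and 0% of all genes passed in the brain, with 2 members and 1910 genes at an unadjusted p under 0.05. The test of any difference among the 4 genotypes passed for Xbp1 and Manf (0.634% of all genes passed), for 0 members without tRNA-Phe-1-1-/- replicate B or C, for 1 without tRNA-Phe-1-1-/- replicate A, WT replicate B or C or replicate A of tRNA-Phe-2-1-/- or of tRNA-Phe-3-1-/-, and for 4 without tRNA-Phe-3-1-/- replicate B.

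In the liver, 9 members were higher in tRNA-Phe-1-1-/- than in tRNA-Phe-2-1-/- (15.9% of all genes passed, 7.37% as higher) and 15 were higher than in tRNA-Phe-3-1-/- (16.1%, and 7.45% as higher), while 0 were lower. Sec61a1, Syvn1, Edem1, Creld2, Hyou1 and Pdia5 passed in both. Syvn1 gave a log2 difference of 1.59 ± 0.20 from tRNA-Phe-2-1-/- and 1.74 ± 0.20 from tRNA-Phe-3-1-/- (adjusted p = 0.000585 and 0.00038). Hyou1 gave 0.93 ± 0.21 and 1.65 ± 0.21 (adjusted p = 0.0136 and 0.000746). Sec61a1 gave 0.35 ± 0.09 and 0.32 ± 0.09 (adjusted p = 0.0178 and 0.0285). The members that passed against tRNA-Phe-3-1-/- also included Ssr3, Srpr, Srprb, Rpn1 and Stt3b of the entry and glycosylation machinery, with log2 differences from 0.22 for Stt3b to 0.56 for Srpr. Herpud1 passed against tRNA-Phe-2-1-/- (log2 fold change 1.39 ± 0.29 (SE), adjusted p = 0.00905) and not against tRNA-Phe-3-1-/- (log2 fold change 0.83 ± 0.29 (SE), adjusted p = 0.0753). Without tRNA-Phe-1-1-/- replicate A the counts were 3 against tRNA-Phe-2-1-/- and 9 against tRNA-Phe-3-1-/-, and without tRNA-Phe-2-1-/- replicate B the first was 3. Between tRNA-Phe-3-1-/- and tRNA-Phe-2-1-/-, 0 members and 0% of all genes passed, with 5 members and 1059 genes at an unadjusted p under 0.05. Any difference among the 4 genotypes passed for 17 members (17% of all genes passed), for 5 members without tRNA-Phe-1-1-/- replicate A and for 9 without WT replicate C or tRNA-Phe-1-1-/- replicate C.

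Genes of the same pathways outside the 39 were counted in lists chosen by function. Among all genes tested in tRNA-Phe-1-1-/- against WT, 0.624% rose and 0.426% fell in the brain, and 8.27% and 9.08% in the liver. An unadjusted p under 0.05 was found for 15.9% of all genes in the brain and 31.8% in the liver. In tRNA-Phe-1-1-/- against WT, 0 of 6 SRP genes and 0 of 4 further oligosaccharyltransferase genes passed in either tissue by limma. At an unadjusted p under 0.05 these were 1 and 0 in the brain and 0 and 2 in the liver. Of 8 genes of the signal peptidase and partners of the translocon, 0 passed in the brain (1 at an unadjusted p under 0.05) and 2 rose in the liver, the peptidase subunits Sec11c (0.38 ± 0.12, adjusted p = 0.0456) and Spcs1 (0.26 ± 0.08, adjusted p = 0.0484). Of 17 genes that build and trim N-glycans, 1 rose in each tissue, Prkcsh of glucosidase II (0.34 ± 0.06, adjusted p = 0.0376 in the brain and 0.26 ± 0.07, adjusted p = 0.0255 in the liver). Of 18 other ERAD genes, 1 rose in the brain, the ubiquitin-conjugating enzyme gene Ube2g2 (0.54 ± 0.11, adjusted p = 0.0431), while in the liver 3 rose, Ube2g2 (0.64 ± 0.12, adjusted p = 0.00445), Ube2j1 and Ube2j2, and 2 fell, Faf2 and Ngly1. Of 6 genes of the PERK branch, the third arm of the UPR, 0 passed in the brain (1 at an unadjusted p under 0.05) and 1 rose in the liver, Chac1 (1.11 ± 0.35, adjusted p = 0.0474). The log2 fold change of Atf4, the transcription factor of this branch, was -0.24 ± 0.12, adjusted p = 0.191 in the liver. Yet 4 of these 6 genes were higher than WT by log2 fold change in each tissue (brain median 0.14, liver median 0.37). Summed over the branch, WT brains held 4814 to 5150 normalised counts and tRNA-Phe-1-1-/- brains 5660 to 5848, with no overlap. The liver sums did overlap (WT 4601 to 5224, tRNA-Phe-1-1-/- 4312 to 5004). Of 8 genes that process ATF6 or encode related factors, 0 passed in the brain (2 at an unadjusted p under 0.05) and 2 rose in the liver, Creb3 (0.52 ± 0.10, adjusted p = 0.00493) and Creb3l2 (0.67 ± 0.19, adjusted p = 0.0328). In tRNA-Phe-2-1-/- and in tRNA-Phe-3-1-/-, 0 genes of these lists passed against WT in either tissue by limma, with 0 to 4 genes of a list at an unadjusted p under 0.05.

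Most core ER chaperones rose in tRNA-Phe-1-1-/- too. Of 11 such genes, 7 rose in tRNA-Phe-1-1-/- brains and 9 in tRNA-Phe-1-1-/- livers, and the median of their log2 fold changes was 0.49 and 0.73. Hspa5, the BiP gene, gave 0.84 ± 0.13, adjusted p = 0.0198 in the brain, and Dnajc3, a co-chaperone of BiP, gave 0.88 ± 0.11, adjusted p = 0.000607 in the liver. The summed chaperone counts ran from 53535 to 58385 in WT and 72907 to 83342 in tRNA-Phe-1-1-/- brains, and from 168019 to 195140.0 and 250936 to 273514 in the livers, without overlap.

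Other gene groups moved with tRNA-Phe-1-1-/- in the same samples. In the liver, 8 of 8 acute phase genes rose, their log2 fold changes having a median of 3.33, and their summed count was 236790.0 to 249022 in WT, 407402 to 735863 in tRNA-Phe-1-1-/-, 234178 to 248696 in tRNA-Phe-2-1-/- and 212143 to 273139 in tRNA-Phe-3-1-/-. Of 8 clock genes that peak with Dbp, 7 rose, and of 5 that peak with Bmal1, 5 fell. The summed count of the Dbp group was 2952 to 4953 in WT, 10712 to 22114 in tRNA-Phe-1-1-/-, 3121 to 7576 in tRNA-Phe-2-1-/- and 5881 to 14462 in tRNA-Phe-3-1-/-, and that of the Bmal1 group was 7692 to 8414, 3243 to 5175, 6248 to 8220.0 and 4617 to 7019. In tRNA-Phe-3-1-/- livers 0 of 8 and 0 of 5 of these genes passed, with 5 and 4 at an unadjusted p under 0.05. The sources used here do not give the time of day at which tissues were taken.

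Among cell type markers in the liver, genes of plasma and B cells, of which the former are rich in ER, summed to 459.6 to 558 in WT and 168 to 277 in tRNA-Phe-1-1-/- (3 of 6 genes tested fell), and were 218 to 312 in tRNA-Phe-2-1-/- and 349 to 515 in tRNA-Phe-3-1-/-. Neutrophil markers summed to 7.82 to 36.3 in WT and 72.7 to 239.8 in tRNA-Phe-1-1-/- livers (2 of 2 tested rose). Of these 6 markers, 5 had a mean under 10 in WT livers and 4 in tRNA-Phe-1-1-/- livers. The filter can thus admit a marker through its tRNA-Phe-1-1-/- values. Blood markers summed to 19732 to 26031 in WT and 11566 to 13839.9 in tRNA-Phe-1-1-/- livers (4 of 5 fell). Hepatocyte markers summed to 2746160.0 to 3369920.0 in WT and 2157300.0 to 2654570.0 in tRNA-Phe-1-1-/- livers (1 of 8 rose, 0 fell). They summed to 2289550 to 2600980 in tRNA-Phe-2-1-/- and 2938600 to 3417050 in tRNA-Phe-3-1-/- livers. In the brain, oligodendrocyte markers summed to 95561 to 112748 in WT and 36737 to 67812 in tRNA-Phe-1-1-/-, where 1 of 6, Opalin, fell (-2.19 ± 0.37, adjusted p = 0.0256), and neuron markers to 131063 to 160692 and 123511 to 150234 (0 of 6 passed). Blood markers summed to 15395 to 28255 in WT and 7588 to 9630.5 in tRNA-Phe-1-1-/- brains (0 of 5 passed, 5 at an unadjusted p under 0.05, median log2 fold change -1.13). Of 6 endothelial markers tested, 1 fell, Cldn5 (-0.54 ± 0.08, adjusted p = 0.016). Of the 8 clock genes that peak with Dbp, 2 rose in tRNA-Phe-1-1-/- brains, and of 3 acute phase genes tested there 1 rose, Lcn2 (5.30 ± 1.07, adjusted p = 0.0469). Of the 8 acute phase genes, 6 had a mean under 10 in WT brains and 4 in tRNA-Phe-1-1-/- brains. The filter used the mean of all brains, so it can admit a gene through its tRNA-Phe-1-1-/- values. The summed counts of the acute phase genes overlapped (WT 55.3 to 127, tRNA-Phe-1-1-/- 103 to 569). Library measures moved as well. The mitochondrial share was 4.61 to 5.76% of reads in WT and 4.09 to 4.17% in tRNA-Phe-1-1-/- livers, the share of the 10 highest genes was 29.1 to 30.4% and 27.8 to 28.1%, and 25827 to 26729 genes were above 0 in WT and 25464 to 25651 in tRNA-Phe-1-1-/- brains. The part of the acute phase, the clock genes, these cell types and these library measures in the members' changes was not tested.

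**Figure D4:**
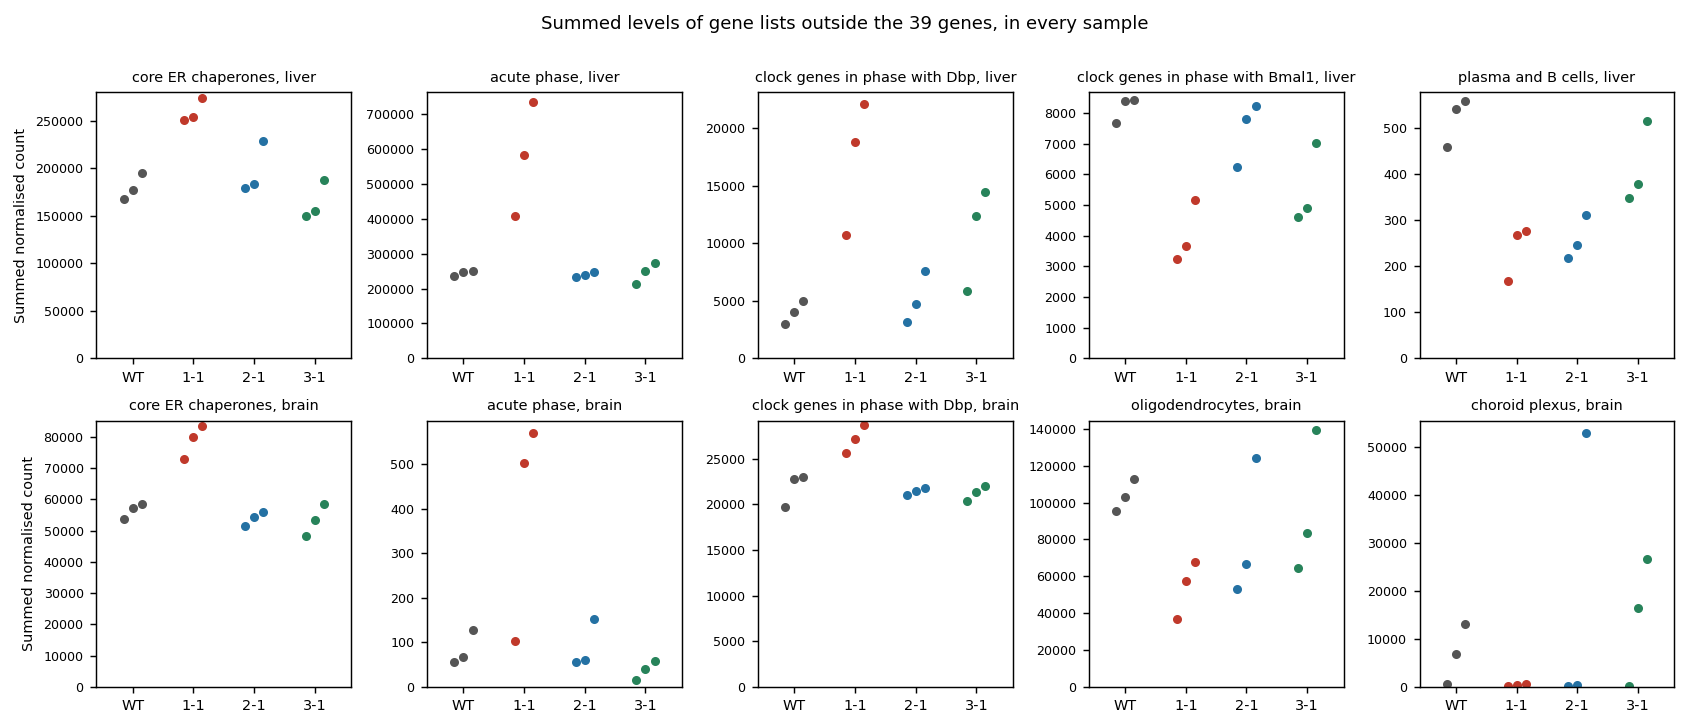
Summed normalised counts (vertical axis, from 0) of 5 gene lists in the liver (above) and 5 in the brain (below), with 1 point per sample, ordered from lowest to highest within each genotype (horizontal axis; 1-1, 2-1 and 3-1 are the knockouts). Every tRNA-Phe-1-1-/- liver lies above all others for chaperones and acute phase genes, 2 of 3 tRNA-Phe-3-1-/- livers lie above the lowest tRNA-Phe-1-1-/- liver for the Dbp group, and 1 tRNA-Phe-2-1-/- brain has the highest choroid plexus sum.

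The lines lack a gene for the tRNA that reads phenylalanine codons, and the share of TTT and TTC codons was counted in the coding sequences of the 39 genes. The median share was 4.84% of codons, beside 3.74% over 21385 protein-coding genes, whose 5th to 95th percentiles ran from 1.40% to 7.74%. Among the members that rose in tRNA-Phe-1-1-/- livers, Derl3 had 12.7%, Syvn1 6.21%, Uggt1 4.90%, Pdia5 4.84%, Srprb 4.83%, Edem3 4.40% and Herpud1 4.09%, all above the median of all genes, while Atf6 had 2.29%, Xbp1 2.42%, Creld2 3.14% and Hyou1 3.604%. Manf had 1.68%. Derl2, at 12.97%, had the highest share of the 39 and did not pass with limma in tRNA-Phe-1-1-/- in either tissue, though DESeq2 called it in the brain. These shares are a description, and no relation between codon share and change was tested.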

How the data were processed

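Male mouse brain and liver RNA was sequenced on a NovaSeq instrument after TruSeq preparation. The authors trimmed reads with Trim Galore and cutadapt, aligned them with STAR to GRCm38.p6 with nuclear mitochondrial copies masked, estimated counts with Salmon on GENCODE vM24, and normalised each tissue separately with DESeq2. The deposited values are these normalised counts, a signal that is not raw counts. Salmon divides reads among near-identical copies of a gene, so genes with such copies are uncertain. The other deposited tables hold the authors' own comparisons (mean, log2 fold change, its error and s-value) and were not used. Whole reads were recovered for 100.0% of values (tolerance 0.001). Of the gene IDs, 93.2% matched a symbol.

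limma (3.58.1, R 4.3.3) was run on genes whose normalised count averaged 10 or more, on log2(normalised count + 1) with a variance trend, fitting 12 samples per tissue, and p-values were adjusted by the Benjamini-Hochberg method over all genes tested. The comparisons were each knockout against WT, the knockouts against each other, and any difference among the 4 genotypes. Alternatives were pseudocounts of 0.1 and 5, no filter, a mean of at least 50, quantile normalisation, TMM rescaling, no variance trend, fitting only the groups compared, a replicate block, edgeR (4.0.16) and DESeq2 (1.42.0) on the recovered reads, and leaving out each replicate. The procedure was tested on simulated data. Figures were drawn with matplotlib 3.10.9. The members and lists were chosen with earlier results of these data known. The rule for named genes took, in each role, the 2 members with the lowest and the 1 with the highest adjusted p in tRNA-Phe-1-1-/- against WT in each tissue, with Xbp1, Ern1 and Atf6, and at most 3 genes of each other list with the lowest adjusted p. Further members that passed, and Faf2, Ngly1 and Atf4, were added after their values were seen. The list genes Alg10b, Hm13 and Tusc3 were not analysed here. Gene positions, promoters and coding sequences came from RefSeq and GENCODE. Promoters were found for 32 of the 39 members, searched from 250 bases before to 50 after the start and printed without the last 50.

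Samples with the same letter were checked for pairing by the correlation of their deviations from group means. In 1 of 12 comparisons all 3 correlations were above 0.1 (tRNA-Phe-2-1-/- against tRNA-Phe-3-1-/- in the brain: 0.13, 0.21 and 0.49), and that comparison had 0 calls with and without the block.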

Additional observations from a re-analysis of the deposited data

Results flagged for a closer look

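In tRNA-Phe-2-1-/-, 2 members lay on opposite sides of WT in the tissues: all 3 brains lay below all WT brains and all 3 livers lay above all WT livers. They were found by searching the 39 members in each of the 3 knockouts. Of all genes tested, 5.43% lay wholly below WT in tRNA-Phe-2-1-/- brains and 13.1% wholly above WT in tRNA-Phe-2-1-/- livers. The share of all genes that did both was not counted. For Xbp1 the log2 fold change was -0.23 in the brain and 0.32 in the liver, a difference of 0.55. For Sec62 it was -0.10 and 0.24, a difference of 0.35. Neither gene passed the test against WT in either tissue, and the difference between tissues, which were normalised separately, was not tested.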

How the results depend on the processing

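In tRNA-Phe-1-1-/- livers against WT, 10 to 16 members passed under the settings other than leaving out a replicate, and 8 to 15 when each was left out. In tRNA-Phe-1-1-/- brains against WT, where 2 passed, the count was 1 with no filter, 1 with quantile normalisation, 1 with no variance trend and 7 with DESeq2, and 0 to 2 when a replicate was left out. Against tRNA-Phe-2-1-/- the 5 brain members became 1 with no variance trend, 3 with the replicate block, 8 with DESeq2, 0 with only the groups compared and 0 to 2 without a replicate. Against tRNA-Phe-3-1-/- the 8 became 4 with no filter, 5 with no variance trend, 4 with the replicate block, 5 with edgeR, 0 with only the groups compared and 1 to 4 without a replicate. The 2 brain members with any difference became 1 with no filter, 4 with a mean of at least 50, 1 with no variance trend, 4 with edgeR, 10 with DESeq2 and 0 to 4 without a replicate.

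In the liver, tRNA-Phe-2-1-/- against WT gave 1 member with DESeq2, and tRNA-Phe-3-1-/- against WT gave 1 with a mean of at least 50, 1 with quantile normalisation and 2 with DESeq2, in place of 0. With quantile normalisation 15 members in place of 9 were higher in tRNA-Phe-1-1-/- than in tRNA-Phe-2-1-/-, and leaving out a replicate 3 to 11. Against tRNA-Phe-3-1-/- only the groups compared gave 7 in place of 15, and leaving out a replicate 9 to 19. Any difference gave 7 with no variance trend in place of 17, and 5 to 15 without a replicate. The causes of these changes were not tested. The labels do not say whether the letters pair the samples. With the replicate block, 3 brain members passed in tRNA-Phe-1-1-/- against WT, where Creld2 and Manf passed and Xbp1 did not. Of 3975 values of single members, 3806 kept their direction and side of the threshold, 27 newly passed, 23 no longer passed, 119 changed sign without passing, and 0 reversed a call. With 3 samples per group, an exact permutation test of a single gene cannot pass the threshold.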
